A study of Mus musculus with 2 samples.

Results

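In the testes of 2 adult mice, 226 of 2552 cells were classed, by a score over 4 genes, as spermatids at the passage from the late round to the elongating form. Each cell was scored for 6 sets of 4 genes, taking log2(1 + CPM) per cell (CPM, counts per 1000000 UMIs of the cell), standardising each gene over all cells and averaging within a set. Every cell was put in the set with its highest score, so that somatic cells and spermatogonia had no set of their own. The T set, which defines the spermatids described here, was Hemgn, 2200002J24Rik, Tmco5b and Pex5l. The other sets, with the working names of their marker genes, were E (early meiotic prophase), P (pachytene), S (early round spermatids), R (mid round spermatids, the class just before T) and L (condensing spermatids with protamine RNA, the class just after). Both animals were wild-type C57Bl/6J Crl littermates 8 weeks old, and a small piece of testis of each was digested with enzymes and passed through a strainer, a step meant to keep down the somatic cells, before 1 droplet library was made. Cell types were not sorted. They form a single group of 2 mice, so no condition was compared. The libraries held 27450497 UMIs in 1237 cells of mouse 1 and 30302332 UMIs in 1315 cells of mouse 2, and no barcode was shared between them. Paired values give mouse 1 first, CPM refers to the UMIs summed over a class in a mouse unless a cell is named, and ± is the SD over the 2 mice (n = 2). Since the classes were cut from the same counts, differences between them are described and not tested.

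In spermiogenesis, the haploid round spermatid builds an acrosome and a flagellum, its nucleus lengthens inside a skirt of microtubules called the manchette, and most histones are exchanged first for transition proteins and then for protamines. Transcription comes to a stop as the chromatin condenses, so transcripts for late sperm proteins are made beforehand, bound by RNA-binding proteins and translated days afterwards. Cells at the turn from round to elongating therefore hold both the remains of round spermatid RNA and the stores for the steps that follow.

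T spermatids made up 99 of 1237 cells in mouse 1 (8.00%, exact 95% binomial interval 6.55 to 9.66%) and 127 of 1315 cells in mouse 2 (9.66%, 8.11 to 11.4%), intervals that cover counting error only. The marker values that follow chose the cells and are a description. Hemgn, which encodes a nuclear protein known from blood precursors and testis (ENSMUSG00000028332, chr4:46393989-46413506, GRCm38), stood at 922 and 907 CPM in T, against 63.9 and 51.9 in R, 205 and 239.5 in L and 18.6 and 13.2 in E. The uncharacterised 2200002J24Rik (ENSMUSG00000013083, chr7:30698926-30700536) had 319 and 328 CPM in T, 25.7 and 25.2 in R and 44.4 and 53.1 in L. Tmco5b (ENSMUSG00000041255, chr2:113285732-113297190), a coiled-coil membrane protein gene, had 221 and 257 CPM in T, 24.99 and 29.8 in R and 14.5 and 21.5 in L. The class second to T was the same in both mice: Hemgn and 2200002J24Rik were second highest in L, while Tmco5b and Pex5l were second highest in R. Pex5l (ENSMUSG00000027674, chr3:32949408-33143247), a relative of the peroxisomal import receptor Pex5, had 666 and 747 CPM in T, 143 and 182 in R and 56.6 and 91.4 in L. A Hemgn UMI was also found in 17.2% and 23.7% of E cells, at a median depth of 15966.5 and 17498 UMIs per cell. In T it was found in 100% and 99.2% of cells, at 23359 and 20297 UMIs. Whether free RNA, doublets or low expression gave the UMIs in E was not tested. All 4 marker transcripts were found together in 98 of 99 and 124 of 127 T cells, but in 13.3% and 13.7% of R cells and 2.17% and 5.96% of L cells.

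**Figure D1:**
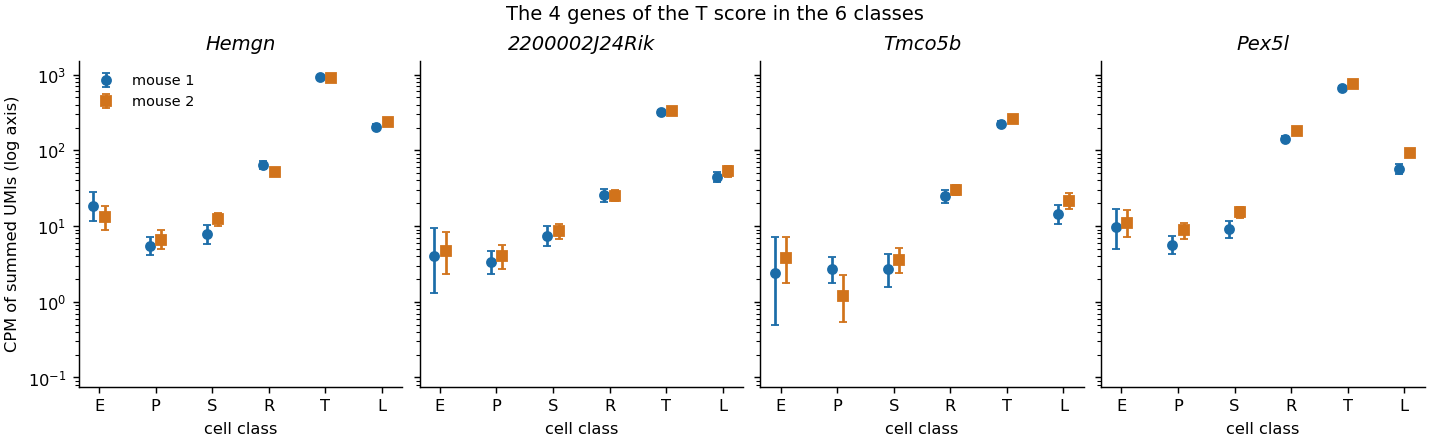
CPM of the 4 genes of the T score (log axis) in the 6 cell classes, from E (early meiotic prophase) to L (condensing spermatids). Circles are mouse 1 and squares mouse 2, with exact 95% Poisson intervals for counting error. Each gene is highest in T, where Hemgn reached 922 and 907 CPM, which follows from the choice of the cells.

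The T class is a range on a score and not a separate type of cell. Its median T score was 1.98 and the median distance to the next score 0.60. The next score was L in 145 members, R in 76, E in 2, P in 2 and S in 1. In 29 members the T score led by less than 0.25, and 63 cells outside the class came within 0.25 of joining it, 30 of them in R and 28 in L. For 3 members the T score itself was below 1, and the lowest, in mouse 2, was -0.204, under the mean of all cells. In mouse 2, 1 member held only 1 of the 4 marker transcripts. Such members need not be spermatids of this stage. The 10 members nearest to the boundary held on average 9.7 Hemgn, 2.5 2200002J24Rik, 3.8 Tmco5b and 11.2 Pex5l UMIs per cell. The 10 cells just outside, of which 6 were R and 3 were L, held 8.2, 2, 1.7 and 8.4. All 4 means were higher inside the boundary than outside, in relative terms most for Tmco5b. Among T cells, Spearman's rho between pairs of the 4 markers, on CPM per cell, ran from -0.18 to 0.28 over 99 cells of mouse 1 and from 0.06 to 0.50 over 127 cells of mouse 2, values that share each cell's total as denominator and come from cells chosen on the mean of the same genes, so nothing is read from them.

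The label was checked against further markers that the scores did not use. The 15 round spermatid markers summed to 7238 and 7589 CPM in T, between 8677 and 8861 in R and 3520.3 and 3710.4 in L. The 14 elongating spermatid markers present in the matrix summed to 29564 and 29656 CPM, between 11157 and 11777 in R and 56025 and 57179 in L. Of the round list, 15 of 15 members passed the filter, 0 above R and 2 below, with a median log2 ratio of -0.47, and of the elongating list, 14 of 14 members passed the filter, 5 above R and 0 below, with a median log2 ratio of 0.84, beside 13.2% of all 7901 genes tested above R and 26.9% below, with at least 30 UMIs per mouse in the higher class. With totals that leave out protamine and transition protein genes, the round list had 1 member above R and 1 below, and the elongating list 5 and 0. By the sums, T lay between its neighbours on both lists in both mice, which matches the name. The most abundant elongating marker in T was Tnp1, a transition protein gene like Tnp2 of the L score. The elongating sum is thus not independent of the choice of the cells. Against L, 1 of the 14 elongating markers was at least 2-fold above in both mice, 3 were below and 10 neither. Of 15 spermatocyte markers, 13 passed the filter and 9 were at least 2-fold below R in both mice, with 0 above. The median log2 ratio to R was -1.57 over these 13 and -0.58 over all genes tested. Among the 9 was Spag6, a flagellar gene, at 146 and 152 CPM against 721 and 735. Of the spermatogonium list, Kit, a receptor of early germ cells that also has a short spermatid transcript, had 3.52 and 2.24 CPM against 12.98 and 9.20 in R, and Sall4 and Ccnd2 had no UMI in T. Only 2 of the 12 members passed the filter, 1 of them below R.

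Transcripts of somatic cells were few in T. Summed CPM were 45.3 and 39.3 for 15 Sertoli markers, 44.8 and 24.9 for 9 Leydig markers, 7.47 and 8.32 for 10 peritubular and endothelial markers and 5.71 and 7.04 for 6 blood markers. Their most abundant genes in T were Clu, Fabp3, Acta2 and Hbb-bs, and among defining markers Gata4, Fshr, Lhcgr, Tagln, Cdh5, Tek, Col1a1 and Alas2 had no UMI. The 10 immune markers summed to 39.5 and 53.1 CPM in T, against 12.2 and 18.6 in R and 122 and 165 in L. Both immune markers that passed the filter were at least 2-fold above R and at least 2-fold below L in both mice. Of all genes tested, 13.2% of 7901 were above R and 2.21% of 5891 below L. C1qb, a complement component made by macrophages, had 14.1 and 16.95 CPM in T, 1.47 and 2.21 in R and 33.9 and 39.98 in L. Apoe, a lipid carrier of macrophages and other cells and the most abundant gene of the list, had 20.2 and 31.3 CPM in T, 8.57 and 8.68 in R and 87.3 and 123 in L. Csf1r and Cd3e were at 0 in T, and Cd68 had 0.439 and 0 CPM. Leydig transcripts were also lower than in L, with Insl3, a Leydig cell hormone, at 15.4 and 8.64 CPM against 59.2 and 100.5. Of the Sertoli and Leydig markers, 1 of 15 and 2 of 9 passed the filter against R, and none of these 3 was 2-fold above or below R in both mice. The part of RNA from such cells in the differences given here was not tested.

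T spermatids were sampled about as deeply as the cells before them and more deeply than the cells after them. The median was 23359 and 20297 UMIs per cell, against 22451 and 21552 in R and 11163 and 12265.5 in L. The ratio of median UMIs per cell in T against R was 0.991 ± 0.0698, and that of median UMIs per cell in T against L was 1.87 ± 0.310 (n = 2). The median number of genes per cell was 4211 and 4104 in T, 4786 and 4747 in R and 2314 and 2321 in L, or 0.872 ± 0.0108 times R and 1.79 ± 0.0365 times L. With every cell thinned to 5000 UMIs, fewer than the 7114 of the smallest cell, it was 2094 and 2084 in T, 2310 and 2312 in R and 1500 and 1476.5 in L. At equal depth, then, a T cell still showed fewer genes than an R cell and more than an L cell in both mice. The 10 most abundant genes took 10.2% and 9.38% of the UMIs in T, 3.92% and 3.80% in R and 22.1% and 19.2% in L. In T they include genes of the L score, which helped to choose the cells. These were Prm1, at 34018 and 27535 CPM, Prm2, at 13327 and 12946, and Tnp2, at 14175 and 13962.5. The share without them was not computed, so a concentration of the other RNA is not read from these values. Scrublet called 1 T cell of each mouse as a doublet, among 25 in all cells, and these were kept. The largest T cells held 72468 and 127911 UMIs. T had 2275604 and 3126580 UMIs in total, so that 3 counts, the limit that a count of 0 allows, correspond to 1.32 and 0.960 CPM.

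Besides the 24 genes used by the scores, 280 of 5504 genes tested (5.09%) had at least 2 times the CPM of each other class in both mice, with at least 30 UMIs in T in each mouse. This count is a description, since the classes were made from these cells. The next highest class was L for 150 of the genes, R for 104, E for 19, P for 6 and S for 1. In this tally a count of 0 stood as 3 counts, which is 2.43 and 1.27 CPM in E. A gene without a UMI in E could thus be put under E, as Tm4sf4 was. They held 208 of 4653 protein-coding genes tested (4.47%), 27 of 310 lincRNAs (8.71%) and 25 of 263 antisense transcripts (9.51%), beside 5.09% over all genes. With TMM scaling, which sets aside the most extreme genes when libraries are made comparable, 213 genes met the same rule, and 190 of the 280 were among them. Ranked by the mouse with the smaller ratio, Cd46 came first of the 12 genes with the largest excess over the next class. In mouse 2 alone, Smok2b and Col9a3 had more, at 24.3 and 21.9 times the next class. Cd46 (ENSMUSG00000016493, chr1:195036826-195092249) is a membrane regulator of complement that in mice is found mainly on the acrosome of sperm. It had 70.8 and 101 CPM in T (exact 95% Poisson intervals 60.2 to 82.6 and 89.9 to 113) and 5.14 and 4.77 in R, the next class, an excess of 13.8 and 21.1 times. Its UMIs were found in 68.7% and 65.4% of T cells, 8.29% and 8.24% of R cells, 4.69% and 4.13% of L cells and 3.12% and 1.69% of E cells. The other classes were at or below the R level, and the source of the UMIs in E was not tested. Nectin1 (ENSMUSG00000032012, chr9:43743984-43807461), a cell adhesion molecule, had 26.4 and 20.8 CPM in T and 1.99 and 1.68 in L, an excess over the next class of 13.2 and 12.4 times. Pou5f1 (ENSMUSG00000024406, chr17:35506018-35510772), which encodes the pluripotency factor Oct4, had 26.8 and 20.5 CPM in T, 1.23 and 1.70 in R and 1.71 and 0.672 in L. Its UMIs were found in 28.3% and 26.8% of T cells and in 1.04% and 1.37% of P cells, at a median depth of 20559.5 and 24272 UMIs per cell. The share was 1.66% and 3.14% in R, and in E it was 3.39% in mouse 2 and 0 of 64 cells in mouse 1. The exact 95% binomial interval of the latter reaches 5.60% of cells with a UMI, counting error only. The 3′ counts do not tell its isoforms or its pseudogene copies apart, so the counts do not say whether the coding transcript was present.

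Galc, a lysosomal galactolipid hydrolase, had 65.04 and 70.7 CPM in T, 9.48 and 9.22 times the next class. Nmur1, a receptor for neuromedin U, had 87.01 and 61.4 CPM, 9.27 and 9.14 times the next class. Osbpl7, a lipid transfer protein of the oxysterol-binding family, had 59.3 and 59.8 CPM, 7.81 and 8.90 times the next class. These were among the more abundant of the 12. Smok2b, a kinase of the sperm motility kinase family whose reads could be shared with its near copies, had 17.6 and 16.3 CPM in T and 1.71 and 0.672 in L. Col9a3, a chain of collagen IX, had 28.1 and 44.1 CPM in T and 3.13 and 2.02 in L, and Tm4sf4, a membrane protein of the tetraspan type, had 22.4 and 23.99 CPM in T and 1.14 and 1.34 in L. The uncharacterised transcripts Gm12119, 1700022F17Rik and 1700011C11Rik completed the set, at 64.2 and 69.1, 48.3 and 57.9 and 20.7 and 15.7 CPM in T. All 12 stayed above the 2-fold line in both mice when TMM scaling, totals without protamine and transition protein genes, or the mean of the CPM per cell replaced the summed CPM.

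**Figure D2:**
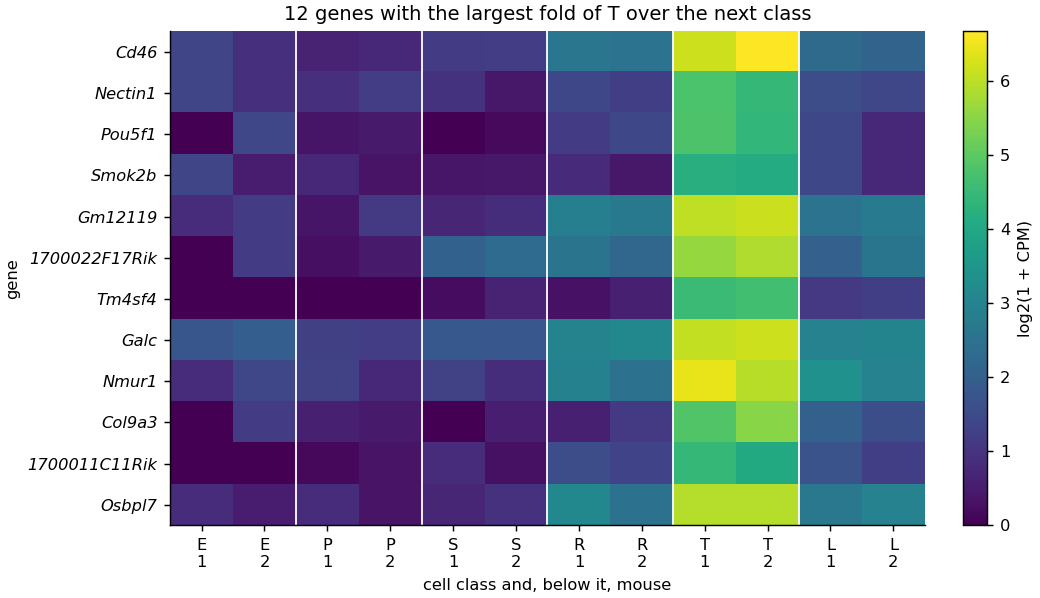
Levels, as log2(1 + CPM), of the 12 genes with the largest excess in T over the next class, in each class and mouse. Colour runs from dark (0) to yellow. The pair of T columns is the brightest in every row, with Cd46 at 70.8 and 101 CPM, and the neighbouring R and L columns hold low levels for most rows.

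The DNA just before an annotated start of 3 of the 4 T markers is shown, since these genes define the class. That of Cd46 is added, which had the largest excess in T by the mouse with the smaller ratio. Also given is that of Ccin, another of the 280 genes. Ccin carries the full cyclic AMP response element that CREM, the activator of many haploid genes, is known to bind. Each line holds the 250 bases before the annotated start in the direction of transcription (RefSeq, build GRCm38.p6), and the table used had no promoter for Pex5l. Capitals mark, on either strand, TGACGTCA (the full element), TGACG (its shorter form, which lies inside the full one), the TATAAA of TATA boxes, part of the X-box bound by RFX factors (GTTGCC), and the letters of a CCAAT box.

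Hemgn (chr4:46404184-46404433, minus strand): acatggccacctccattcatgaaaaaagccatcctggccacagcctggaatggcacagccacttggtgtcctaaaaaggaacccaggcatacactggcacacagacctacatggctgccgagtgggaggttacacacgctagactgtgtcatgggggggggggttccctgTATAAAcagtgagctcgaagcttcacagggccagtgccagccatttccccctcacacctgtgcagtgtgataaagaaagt
2200002J24Rik (chr7:30698676-30698925, plus strand): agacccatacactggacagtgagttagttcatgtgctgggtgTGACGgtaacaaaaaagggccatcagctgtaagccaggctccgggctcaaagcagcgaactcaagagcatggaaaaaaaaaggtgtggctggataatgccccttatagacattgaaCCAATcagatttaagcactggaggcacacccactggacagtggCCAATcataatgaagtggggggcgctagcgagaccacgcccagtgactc
Tmco5b (chr2:113285482-113285731, plus strand): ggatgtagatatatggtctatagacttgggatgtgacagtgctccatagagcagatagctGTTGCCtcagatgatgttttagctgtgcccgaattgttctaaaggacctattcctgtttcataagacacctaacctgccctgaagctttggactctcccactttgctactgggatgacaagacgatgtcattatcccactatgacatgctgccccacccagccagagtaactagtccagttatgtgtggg
Cd46 (chr1:195092249-195092498, minus strand): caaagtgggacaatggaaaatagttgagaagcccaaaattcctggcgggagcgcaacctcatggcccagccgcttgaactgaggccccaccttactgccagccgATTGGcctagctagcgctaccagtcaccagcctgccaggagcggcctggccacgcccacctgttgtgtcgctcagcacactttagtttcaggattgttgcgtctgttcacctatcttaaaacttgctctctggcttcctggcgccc
Ccin (chr4:43983254-43983503, plus strand): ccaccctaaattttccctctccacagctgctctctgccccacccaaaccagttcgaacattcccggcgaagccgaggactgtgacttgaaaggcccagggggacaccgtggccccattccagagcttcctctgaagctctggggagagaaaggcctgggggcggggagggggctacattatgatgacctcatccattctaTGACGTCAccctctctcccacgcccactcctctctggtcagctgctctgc

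The counts, taken at the 3′ end, do not show which start T spermatids used, and the RefSeq start of Hemgn lies inside the longer gene model given before, not at its 5′ end. Hemgn has TATAAA starting 80 bases before that RefSeq start, 2200002J24Rik has TGACG 208 bases and CCAAT 92 and 49 bases before it, and Tmco5b has GTTGCC 190 bases before it. Cd46 has ATTGG, the reverse complement of CCAAT, 146 bases before its start, and the full element of Ccin begins 50 bases before it. These are matches of letters and not shown sites. Over 267 promoters, which covered 198 of the 280 genes highest in T, TGACGTCA was present in 2.62%, against 3.73% of the 5224 promoters of all genes that passed the filter and 1.79% of all 32851 promoters, each from 250 bases before to 50 bases after a start. TGACG was present in 26.97%, 31.7% and 20.8%, TATAAA in 6.74%, 7.89% and 13.6%, GTTGCC in 12.7%, 16.3% and 12.5%, and CCAAT in 32.2%, 39.01% and 37.4%. Each of the 5 shares was thus lower than that over all genes that passed the filter, a difference that was not tested.

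Further single genes among the 280 were picked out after their values had been seen, and no list of such genes was counted. Cd55 (chr1:130439027-130462744), a membrane regulator that speeds the decay of complement convertases, had 72.1 and 104 CPM in T, 13.2 and 15.2 in S, the next class, 10.04 and 13.3 in R and 9.39 and 11.1 in L. Cd59a and Cd59b, neighbouring copies that block the membrane attack complex and whose reads may be shared in part, had 153 and 155 CPM and 100.2 and 121 CPM in T, against 35.8 and 26.7 and 15.7 and 16.01 in R. Tbx5, a factor of heart and limb development, had 40.9 and 37.1 CPM in T, 0.980 and 0.851 in R and 5.12 and 6.72 in L. Zic5, a zinc finger factor of neural development, had 64.6 and 70.04 CPM in T, 13.5 and 18.7 in R and 13.9 and 13.1 in L. Tead2, the partner of the Hippo effector Yap, had 23.3 and 22.4 CPM in T and 5.88 and 5.62 in R. Like Pou5f1, these 3 genes were below 2 CPM in every class before R. Duxf3, a multicopy relative of the Dux factor of the early embryo, had 14.5 and 16.6 CPM in T and 2.21 and 2.55 in R. Etv2 and Pax2, with 20.2 and 16.6 and 18.5 and 19.8 CPM in T, were no longer 2-fold above every other class under TMM scaling.

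Some genes highest in T were more abundant. Scp2d1, a sterol carrier domain protein, had 2167 and 2065 CPM in T, 974 and 985 in R and 650.3 and 633 in L. Ccin, calicin of the sperm head cytoskeleton (chr4:43983483-43985423), had 524 and 618 CPM in T, 165 and 201 in R and 141 and 164 in L. Banf2, a relative of the nuclear envelope factor Banf1, had 762 and 745 CPM in T and 215 and 212 in R. Such levels are well above those of the transcription factors named before. Asns, asparagine synthetase, had 426 and 503 CPM in T, 77.2 and 86.3 in R and 113 and 136 in L. Parn, a poly-A specific ribonuclease, had 88.8 and 87.3 CPM in T and 14.7 and 13.6 in R. Rad21, the kleisin of mitotic cohesin, had 106 and 135 CPM in T, 44.8 and 46.1 in R and 8.82 and 9.74 in L. All of these kept the call under TMM scaling. The ubiquitin adaptors Kbtbd6 and Kbtbd7, neighbours on chromosome 14, had 49.2 and 60.8 CPM and 29.4 and 30.4 CPM in T, and their next highest class was E, with 13.8 and 9.34 and 7.28 and 8.92.

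Compared with R, the class just before, more genes were lower in T than higher. Of 7901 genes tested, 1040 (13.2%) were at least 2-fold above R in both mice and 2127 (26.9%) at least 2-fold below, with at least 30 UMIs per mouse in the higher class. The median log2 ratio over these genes was -0.58, and -0.21 with a minimum of 1 UMI, so that it depends on the filter. R, through which genes can pass it, held 4081634 and 5872319 UMIs in total, more than T. Among genes with at least 100 UMIs per mouse in the higher class, ranked by the mouse with the smaller ratio, the largest excess was that of Mgat4e, a member of a family of N-glycan branching enzymes, at 134 and 139.8 CPM in T and 3.19 and 4.09 in R, a log2 ratio of 5.24 ± 0.21. Dcdc2c, a doublecortin domain protein of the microtubule cytoskeleton, had 91.4 and 111 CPM against 2.69 and 2.72. Esyt3, which tethers the endoplasmic reticulum to the plasma membrane, had 68.99 and 77.1 CPM against 2.21 and 1.70. Sh3bp5, an activator of the trafficking GTPase Rab11, had 136 and 144 CPM against 4.17 and 4.77. These genes were nearly silent in R and were well measured in T in both mice. Zc2hc1b, a zinc finger gene, had 68.1 and 58.9 CPM against 1.96 and 1.87, and the processed transcript Gm26871 had 91.8 and 76.8 CPM against 2.69 and 2.55.

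At the other end, with the same minimum of 100 UMIs, some transcripts of R were nearly gone. Cd27, a receptor known from lymphocytes, had 1.76 and 1.92 CPM in T against 90.7 and 65.4 in R, a log2 ratio of -5.39 ± 0.42. Tssk5, a testis-specific serine kinase, had 2.20 and 3.52 CPM against 88.9 and 89.2, a log2 ratio of -5.00 ± 0.48. The lincRNA 1700041C23Rik, the most abundant of this group in R, had 48.8 and 34.9 CPM against 879 and 687. All 3 were lower than in R in both mice. 4930449I24Rik had 0.879 CPM in mouse 1 and no UMI in mouse 2, where 3 counts would be 0.960 CPM, against 26.5 and 30.5 in R. 4933421I07Rik had 1.76 and 0.640 CPM against 36.5 and 43.3, and Gm42716 had 2.20 and 1.28 CPM against 44.1 and 36.3.

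Compared with L, the class just after, the ratios depend on the scaling, and protamine and transition protein genes took 18.7 and 15.6% of the UMIs in L, 7.57 and 6.71% in T and 0.854 and 0.675% in R. Of 5891 genes tested, 2155 (36.6%) were at least 2-fold above L in both mice and 130 (2.21%) at least 2-fold below, so that 94.3% of the calls were higher in T, with a median log2 ratio of 0.66 over all genes tested. With TMM scaling, 1179 were above and 659 below, 64.1% of the calls were higher in T and the median log2 ratio was 0.05. The direction of a moderate T to L ratio is therefore relative to these totals, while the largest ratios are far beyond the shift. Of the genes with the largest excess over L in the mouse with the smaller ratio, at 100 UMIs or more per mouse in T, Nim1k, a kinase related to AMPK, had 83.5 and 87.00 CPM in T and 1.42 and 2.35 in L, a log2 ratio of 5.54 ± 0.47. Hacd2, a dehydratase of very-long-chain fatty acid synthesis, had 223 and 197 CPM in T, 10.2 and 7.73 in L and 268 and 255 in R. Speer5-ps1, a pseudogene of a rodent multicopy family, had 47.5 and 41.9 CPM in T and 1.99 and 0.672 in L. Hacd2 and Speer5-ps1 were thus at a similar level in R and T and nearly gone in L. The pseudogene Gm5373 had 52.3 and 46.1 CPM against 1.71 and 1.01 in L, 4930513O06Rik 52.3 and 60.8 against 1.71 and 0.672, and 4930500F04Rik 88.8 and 73.6 against 3.70 and 3.02. The genes most below L, with at least 100 UMIs per mouse in L, were Gstm1, 1110008P14Rik, Apoe, Insl3, mt-Co1 and mt-Cytb. Of these, Apoe and Insl3 are markers of somatic cells given before and 2 are mitochondrial. Gstm1, a glutathione transferase, had 8.79 and 11.5 CPM in T and 46.7 and 173 in L. The Leydig list, likewise higher in mouse 2, summed to 157 and 437 CPM in L. The part of somatic RNA in the Gstm1 values was not tested.

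**Figure D3:**
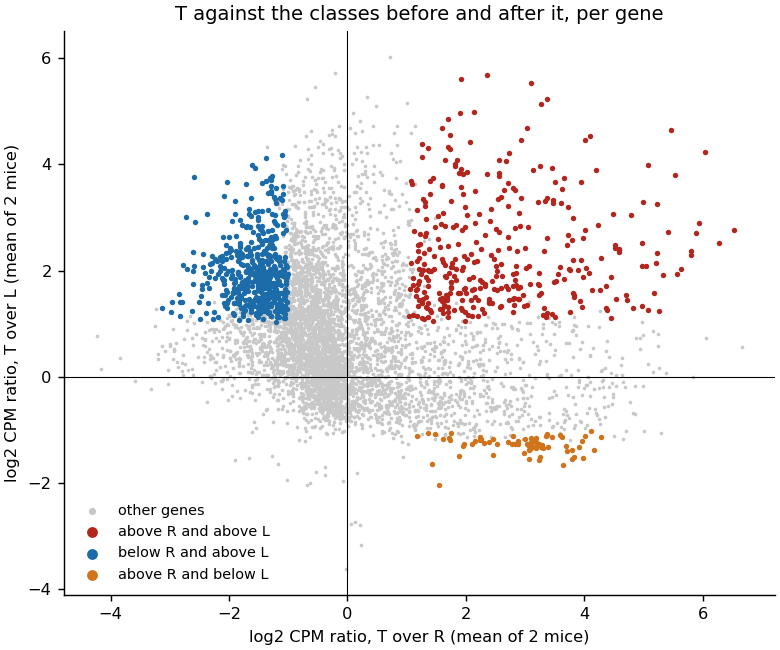
Log2 ratio of CPM in T over R (horizontal) and T over L (vertical), each the mean of the 2 mice, for 5746 genes tested in both comparisons. Coloured points passed 2-fold in both mice on both axes: 352 genes above R and L, 497 below R and above L, and 69 above R and below L. Points below R crowd the left side, and the vertical position moves with the scaling.

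Of the 5746 genes tested on both sides, 352 were above both R and L, 497 below R and above L, 69 above R and below L, and 3 below both. The 497 genes are those whose share was lower in each next class, by these totals, the 69 those with a higher share in each next class, and the 3 were lower in T than in both neighbours. The most abundant genes of T outside the score genes were Tnp1, transition protein 1, at 11581 and 10492 CPM, Meig1, a manchette protein, at 7155 and 6438 CPM, Ldhc, the germ cell lactate dehydrogenase, at 6296 and 6798 CPM, Hmgb4, an HMG-box protein, at 4758 and 4468 CPM, and Smcp, a mitochondrial capsule protein, at 3678 and 4180.0 CPM. Meig1 was nearly as abundant in R, at 7569 and 6926, while Tnp1 stood at 1531 and 1227 in R and 27529 and 22585 in L.

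Gene lists by role were read against the background of 13.2% of genes above R and 26.9% below it and the median log2 ratio of -0.58 over all genes tested, with no test of a list. Among nuclear proteins, histone variants stood on both sides of their R levels. Of the testis histone variants, 11 of 19 members passed the filter, 5 above R and 3 below, with a median log2 ratio of 0.78. H2al2a, a copy of the H2A.L.2 family that works with transition proteins, had 867 and 831 CPM in T, 144 and 122 in R and 1560.4 and 1548 in L, a log2 ratio to R of 2.68 ± 0.12. H2al3, another short H2A variant, had 445 and 422 CPM against 79.6 and 85.5 in R. The broadly expressed variant H2afz had 87.01 and 82.8 CPM against 341 and 351, and H2afb3, a short X-linked variant, 1.76 and 1.28 against 8.82 and 6.81. H2al2b and H2al2c had no UMI in T, and reads of such near-identical copies can be shared or lost. Tnp1 had a log2 ratio to R of 3.01 ± 0.12, and Prm3, a small protamine-like gene, 2649 and 2160.2 CPM against 1579.8 and 1366. Of histone removal factors and chromatin remodelers, 19 of 28 members passed the filter, 2 above R and 10 below, with a median log2 ratio of -1.06. Baz1a, a subunit of ACF-type remodelers, had 168 and 202 CPM in T, 25.97 and 26.9 in R and 68.3 and 65.5 in L, and Cdyl, a chromodomain protein, 984 and 965 CPM against 356 and 353 in R. Those below R included Brdt, Hdac1, Dot1l, Kat5 and Smarca5, and the lowest were Cdyl2, at 6.59 and 5.12 against 36.5 and 37.5, and Parp1, at 6.15 and 2.88 against 32.8 and 31.5.

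Of haploid transcription regulators, 22 of 26 members passed the filter, 1 above R and 6 below, with a median log2 ratio of -0.64. The member above R was Fhl5, the coactivator of CREM in spermatids, at 1408 and 1558 CPM in T, 612 and 689 in R and 773 and 868 in L. Crem itself had 343 and 363 CPM in T and 708 and 804 in R, the TATA-binding protein gene Tbp 10.1 and 6.40 against 61.2 and 60.3, and Foxj1, a factor of motile cilia, 7.03 and 8.32 against 56.4 and 50.1. Tcfl5, a testis factor, had 24.2 and 29.7 CPM in T and 12.2 and 21.3 in R and did not pass 2-fold in both mice. Of genes of translational storage and poly-A control, 27 of 32 members passed the filter, 1 above R and 9 below, with a median log2 ratio of -0.72. Eif4e, which binds the mRNA cap, was the member above, at 928 and 871 CPM in T, 154 and 151 in R and 1324 and 1326 in L. The lowest were Tdrd7, a protein of the chromatoid body, at 25.05 and 33.6 against 200.2 and 211 in R, and Cnot4, a ligase bound to the deadenylase complex, at 26.4 and 25.3 against 122 and 132. Of the cytosolic ribosomal proteins, 33 of 36 members passed the filter, 0 above R and 3 below, with a median log2 ratio of -0.33. The 3 were Rps4l, Rpl39l and Rpl10l, which are copies of broadly expressed ribosomal genes. Only 1 member was below R with TMM scaling, and 1 with totals without protamine and transition protein genes. Rpl10l had 33.4 and 26.5 CPM in T, 98.2 and 91.4 in R and 13.4 and 7.06 in L.

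For the acrosome, of the genes of its biogenesis 21 of 24 members passed the filter, 2 above R and 4 below, with a median log2 ratio of -0.79. Fam71f1 had 867 and 875 CPM in T and 236 and 254 in R, and Hook1, a microtubule linker that is also on the manchette list, 569 and 690.2 against 211 and 297. Dpy19l2, which anchors the acrosome to the nucleus, had 21.5 and 19.8 CPM against 79.4 and 89.1 in R, and Zpbp2, a matrix protein that binds the zona pellucida, 153 and 137 against 551 and 533. Of acrosome contents and fusion proteins, 36 of 38 members passed the filter, 3 above R and 5 below, with a median log2 ratio of -0.43, while 22 of 36 were above L and none below (16 above and 2 below with TMM scaling), beside 36.6% of all genes tested above L and 2.21% below (1179 and 659 of 5891 with TMM scaling). The other 28 members did not pass 2-fold against R in both mice. Calr3, the testis calreticulin that folds sperm surface proteins, had the highest ratio to R and was among the genes highest in T, though not with TMM scaling, with 536 and 579.9 CPM in T, 80.4 and 88.6 in R and 187 and 224 in L. Prss55, a membrane serine protease, had 199.9 and 241 CPM in T, 44.1 and 61.8 in R and 241 and 266 in L. Spam1, the sperm hyaluronidase, had 16.7 and 23.03 CPM against 277 and 283 in R, a log2 ratio of -3.84 ± 0.30, and Adam1b, the partner of Adam2 in sperm fertilin, 16.7 and 12.8 against 111 and 90.9.

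The flagellum lists are given in turn, and differences between them were not tested. Of the axoneme genes, 38 of 40 members passed the filter, 3 above R and 19 below, with a median log2 ratio of -1.08, with the lowest ratios for Cfap58, at 31.2 and 24.9 CPM against 171 and 167 in R, and Spag6. The members above R were Cfap221, Tctex1d1, a dynein light chain relative at 458 and 498 against 164 and 165, and Tekt5, a tektin of the outer doublets at 197 and 230.0 against 65.2 and 75.3, which was also among the genes highest in T but not with TMM scaling. Of the fibrous sheath and outer dense fiber genes, 23 of 23 members passed the filter, 2 above R and 5 below, with a median log2 ratio of -0.02. Odf3b, a relative of a dense fiber protein, had 36.5 and 33.3 CPM in T, 1.47 and 1.02 in R and 51.8 and 59.8 in L, and Spert, a spermatid protein, 1128 and 1302 against 494 and 570.1. Odf2l, a centriole protein, had 2.20 and 5.76 CPM against 31.1 and 31.7 in R and Spag5, a spindle protein, 2.64 and 4.48 against 17.9 and 16.01, so these list members are known from the centrosome and spindle. Of midpiece genes, 21 of 24 members passed the filter, 1 above R and 6 below, with a median log2 ratio of -0.51. Klc3, a kinesin light chain of the midpiece that is also on the manchette list, had 87.01 and 97.6 CPM in T, 3.19 and 4.26 in R and 84.5 and 94.7 in L, a log2 ratio to R of 4.64 ± 0.18. It was nearly silent in R, unlike in T and L. The lowest were Cyct, the testis cytochrome c, at 36.5 and 31.98 against 112 and 105, and the ADP/ATP carrier Slc25a31, at 6.59 and 7.68 against 19.8 and 25.5. Of manchette and nuclear shaping genes, 34 of 39 members passed the filter, 3 above R and 9 below, with a median log2 ratio of -0.50. Spem1, which is needed to shed the cytoplasm, had 377 and 378 CPM in T, 77.4 and 81.6 in R and 759 and 974 in L, and Lrguk, a protein needed for head shaping, 3.95 and 4.48 against 28.7 and 25.2 in R.

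**Figure D4:**
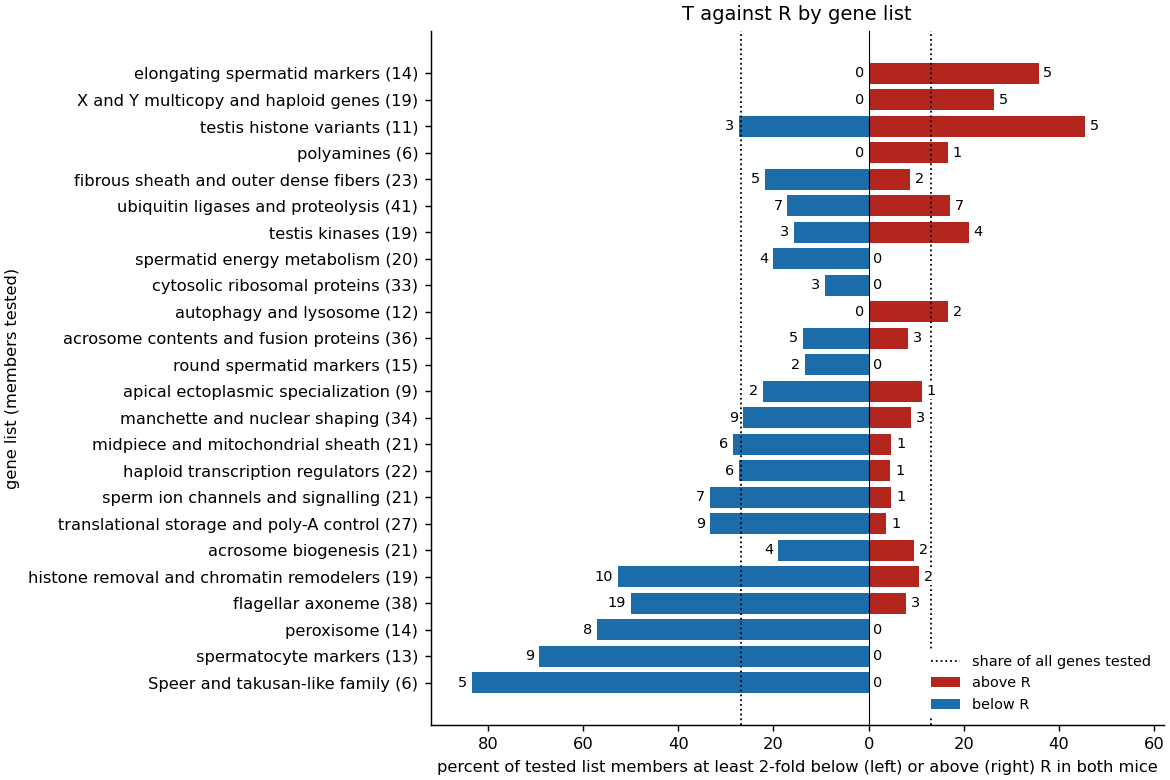
Percent of the tested members of each gene list that were at least 2-fold above R (red, right) or below R (blue, left) in both mice, for the 24 lists with at least 6 members tested. Numbers at the bars count genes, and dotted lines mark the shares over all genes tested, 13.2% above and 26.9% below. Elongating markers and histone variants extend farthest above, and the Speer family, spermatocyte markers, peroxisome, chromatin remodeler and axoneme genes farthest below.

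Of genes of spermatid energy metabolism, 20 of 24 members passed the filter, 0 above R and 4 below, with a median log2 ratio of -0.14. Gapdhs, the spermatid glyceraldehyde phosphate dehydrogenase, had 1089.8 and 1281 CPM in T, 587 and 678 in R and 2116 and 3104 in L, and the glycolytic Pfkp 29.4 and 24.6 against 122 and 111 in R. Of peroxisome genes, 14 of 25 members passed the filter, 0 above R and 8 below, with a median log2 ratio of -1.24. Hsd17b4, a multifunctional enzyme of peroxisomal beta-oxidation, had 1.76 and 2.56 CPM against 36.99 and 32.9 in R, a log2 ratio of -4.04 ± 0.50, and the import factor Pex14 3.52 and 3.20 against 12.2 and 14.5. Far1, Pex13 and Pex19 were also below R, whereas Pex5l, a gene of this list, marked T by choice of the cells. Of ion channel and signalling genes, 21 of 31 members passed the filter, 1 above R and 7 below, with a median log2 ratio of -0.71. The subunits of protein kinase A went apart: Prkar2a, a type II regulatory subunit of the flagellum, had 196 and 299.7 CPM in T, 25.2 and 38.5 in R and 391 and 756 in L. Prkaca, the catalytic subunit, had 9.23 and 6.72 CPM in T, 54.9 and 60.5 in R and 6.26 and 8.06 in L. The type I regulatory subunit Prkar1a, at 111 and 114 against 354 and 395 in R, was likewise below R. Slc9c1, the sperm sodium-proton exchanger, had 9.23 and 9.28 CPM against 47.5 and 48.5. Of testis kinases, 19 of 21 members passed the filter, 4 above R and 3 below, with a median log2 ratio of -0.07. Tssk6, needed for nuclear condensation, had 824 and 851 CPM in T, 145 and 166 in R and 1609.6 and 2115 in L, Tssk3 was above R as well, and Tssk5 was far below, so members of the Tssk family stood on both sides. Pak2, a p21-activated kinase, had 42.2 and 43.5 CPM in T, 7.59 and 7.49 in R and 10.8 and 9.41 in L.

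Of genes of protein breakdown, 41 of 46 members passed the filter, 7 above R and 7 below, with a median log2 ratio of -0.05. Fbxo39, an F-box adaptor, had 251 and 273 CPM in T and 32.1 and 29.8 in R, and Psme3, a nuclear proteasome activator, 296 and 309 against 39.2 and 38.5. Hspa2, the testis HSP70 chaperone, had 288 and 295 CPM against 883 and 921, and Spopl, an adaptor of cullin ligases, 1.76 and 4.80 against 8.57 and 9.71. Of autophagy and lysosome genes, 12 of 20 members passed the filter, 2 above R and 0 below, with a median log2 ratio of -0.42. Lamp2 (chrX:38401357-38456454), a lysosomal membrane protein, was among the genes highest in T, also with TMM scaling, with 75.1 and 90.5 CPM in T, 23.03 and 19.2 in R and 15.9 and 18.1 in L. Gabarapl1, an autophagosome protein, had 1549 and 1436 CPM in T, 511 and 489.6 in R and 2857 and 2616 in L. For contacts with the Sertoli cell, of the ectoplasmic specialization genes 9 of 20 members passed the filter, 1 above R and 2 below, with a median log2 ratio of -0.49, and Nectin2, an adhesion molecule of the junctions between Sertoli cells and spermatids, had 54.9 and 64.6 CPM in T, 5.39 and 3.92 in R and 61.2 and 74.9 in L. Nectin1 was among the genes highest in T. Of polyamine genes, 6 of 13 members passed the filter, 1 above R and 0 below, with a median log2 ratio of 0.43, the member above being Azin2, an antizyme inhibitor, at 164 and 184 against 55.6 and 69.6. Of X- and Y-linked multicopy and haploid genes, 19 of 34 members passed the filter, 5 above R and 0 below, with a median log2 ratio of 0.83. Cypt15 had 135 and 118 CPM against 25.97 and 25.5 in R and H2al1m 28.6 and 26.2 against 5.14 and 5.62, both members of X-linked families whose copies can share reads, while of the multicopy Speer family 6 of 13 members passed the filter, 0 above R and 5 below, with a median log2 ratio of -1.996. Speer4b had 2.64 and 2.56 against 37.5 and 41.04. Values of single members of such families are uncertain.

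Against L, the counts of the lists depend on the scaling and are read beside 36.6% of all genes tested above and 2.21% below (1179 and 659 of 5891 genes with TMM scaling). Elongating spermatid markers had 1 of 14 members above L and 3 below, and with TMM scaling 1 above and 10 below. Round spermatid markers had 12 of 15 above and 0 below, and 11 and 0 with TMM scaling. Histone variants had 2 of 10 above and 0 below, and 2 and 3 with TMM scaling. The count of round markers was thus nearly the same under both scalings, unlike that of elongating markers. Chromatin remodelers had 8 of 12 above L (2 with TMM scaling), axoneme genes 13 of 33 (9), fibrous sheath and outer dense fiber genes 6 of 20 (2), and ribosomal proteins 3 of 32 (1). With TMM scaling, 8 fibrous sheath and outer dense fiber genes and 10 ribosomal protein genes were below L, where summed CPM put none.

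By chromosome, X-linked genes took 1.71 and 1.77% of the UMIs in T, 1.32 and 1.34% in R, 1.74 and 1.71% in L and 0.747 and 0.814% in S. The Y took 0.0354 and 0.0355% in T, 0.0774 and 0.0852% in R and 0.0108 and 0.00669% in L. From R to T the X share was higher and the Y share lower in both mice, and the X-linked genes highest in T were 6 of 161 tested (3.73%), beside 5.09% of all genes tested. Mitochondrial genes took 0.0202 and 0.0220% of the UMIs in T, the lowest share of the 6 classes, against 0.0392 and 0.0346% in R and 0.0777 and 0.0700% in L. Rows for repeat sequences took 1.31 and 1.39% in T and 1.39 and 1.53% in R. Most of this was the row of poly-A sequence, a simple repeat, at 8224 and 9186 CPM in T, 7101 and 8368 in R and 7869 and 8971 in L. Of 84 repeat rows tested, 2 (2.38%) were highest in T. MMERVK10C, an endogenous retrovirus of the ERV2 class, had 526 and 542 CPM in T, 204 and 224 in R, 11.4 and 17.5 in L and 206 and 90.9 in E. The other was RMER16-int, at 57.6 and 46.7 CPM in T and 16.9 and 21.1 in R. The SINE row B1_Mus1 had 155 and 164 CPM in T, below its 198 and 257 in R. Repeat rows collect many genomic copies, whose single loci were not told apart.

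Within T, the cells of each mouse were put in 4 bins of near equal size by the L score minus the R score, from the R side (bin 1) to the L side (bin 4). The score uses rule genes only, and the other genes are described along it. The protamine and transition protein share, which includes 3 rule genes of the order itself, was 3.04 and 3.42% in bin 1, 6.01 and 6.09% in bin 2, 10.4 and 8.43% in bin 3 and 12.98 and 11.5% in bin 4. Genes per cell at 5000 UMIs went from 2221 and 2194 in bin 1 to 1762 and 1785 in bin 4. The median full depth was 24241 and 25207 UMIs per cell in bin 1, 24800 and 22337.5 in bin 2, 18174 and 19462 in bin 3 and 20379 and 15500 in bin 4. The Y share went from 0.0593 and 0.0594% to 0.0133 and 0.00973%. The X share was nearly level, at 1.67 and 1.72% in bin 1 and 1.75 and 1.79% in bin 4. Of 3379 genes tested, 198 (5.86%) were at least 2-fold higher in bin 4 than in bin 1 in both mice, and 957 (28.3%) at least 2-fold lower. The round spermatid markers summed to 9302 and 9177 CPM in bin 1 and 4882 and 5305 in bin 4, and the elongating markers to 20374 and 21969 in bin 1 and 41115 and 41450.3 in bin 4. The immune list summed to 25.5 and 19.5 CPM in bin 1 and 75.01 and 115 in bin 4, and the Sertoli list to 35.97 and 21.4 CPM in bin 1 and 62.5 and 72.03 in bin 4. The part of both in the other values was not tested.

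With at least 100 UMIs per mouse, the genes with the largest excess in bin 4 were Cby3, a Chibby family gene, from 10.5 and 12.7 CPM in bin 1 to 183 and 228 in bin 4, and Insig1, a regulator of sterol synthesis, from 7.49 and 9.73 to 106 and 128. Prss51, a testis serine protease, went from 32.97 and 39.9 to 396 and 444, and Aktip, a partner of the kinase Akt, from 11.99 and 18.5 to 183 and 177. All 4 were intermediate in bins 2 and 3 in both mice. The largest deficits were those of Rlim, an X-linked ubiquitin ligase, from 151 and 140.2 in bin 1 to 2.08 and 1.95 in bin 4, and Stambpl1, a deubiquitinase, from 132 and 126 to 2.08 and 1.95. Ccdc105, a coiled-coil gene, went from 337 and 313 to 10.4 and 7.79, and Pgrmc1, a heme-binding membrane protein gene, from 118 and 162 to 4.17 and 5.84. Spaca1, an acrosomal membrane protein and round marker, chosen after its values were seen, went from 958 and 896 to 45.8 and 64.2. The 4 genes of the T score did not share a course: Hemgn went from 565 and 603 to 1333 and 1117, while Pex5l had 623 and 676 in bin 1 and 629 and 687 in bin 4.

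Of the genes highest in T, 148 had enough UMIs to be followed, and 83 of them (56.1%) had their highest bin among bins 2 and 3 in both mice, against 397 of 3063 (13.0%) of all genes followed, a difference that the choice of genes low in R and L favours. Cd46 stood at 68.9 and 102 CPM in bin 1, 101 and 106 in bin 2, 83.6 and 142 in bin 3 and 20.8 and 23.4 in bin 4. Mouse 1 had the peak in bin 2 and mouse 2 in bin 3, while the lowest level was that of bin 4 in both animals. Calr3 was higher in each next bin, with 351 and 393 in bin 1, 443 and 500.4 in bin 2, 645 and 712 in bin 3 and 802 and 862 in bin 4. The retrovirus row MMERVK10C went the other way, from 763 and 762 in bin 1 to 110.4 and 101 in bin 4. Of the 148 genes, 12 had their highest bin in bin 1 in both mice and 11 in bin 4, against 1133 and 505 of the 3063 genes followed. Genes that all count as highest in T therefore reached their peak on the R side, in the middle or on the L side of the class.

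**Figure D5:**
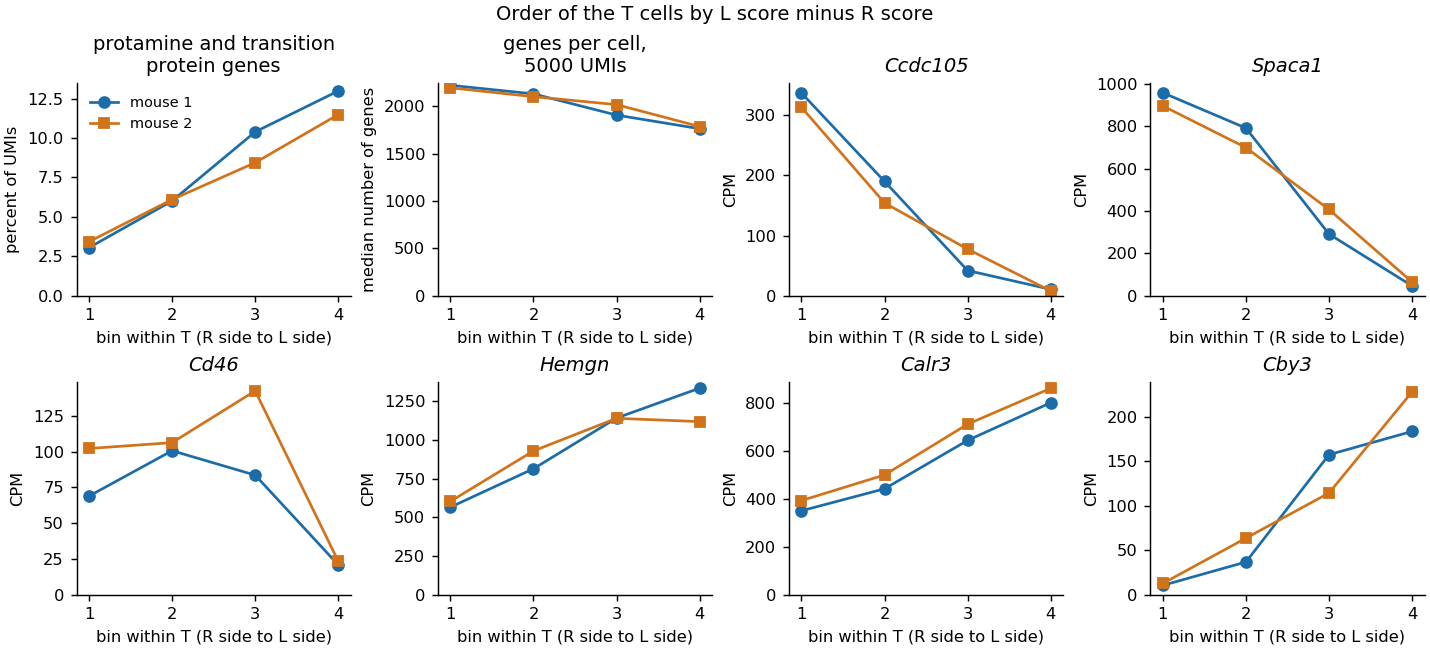
T spermatids in 4 bins from the R side (1) to the L side (4), with mouse 1 as circles and mouse 2 as squares. The first panel gives the percent of UMIs on protamine and transition protein genes, the second the median number of genes per cell at 5000 UMIs, and the others CPM of single genes. Ccdc105 and Spaca1 are highest in bin 1, Cd46 in bins 2 and 3, and Hemgn, Calr3 and Cby3 on the L side.

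The mice differed little within T: of 3649 genes tested, 23 (0.63%) were at least 2-fold higher in mouse 2 and 3 (0.0822%) at least 2-fold higher in mouse 1, with 1 mouse on each side and no test. Frat2, a Wnt pathway gene, had 16.3 and 90.5 CPM in T and 26.5 and 95.9 in R. Zdbf2, an imprinted gene, had 37.8 and 170.2 in T, 35.3 and 110.0 in R and 47.5 and 169 in L. Both were higher in mouse 2 in the neighbouring classes as well. Etnk1, ethanolamine kinase, had 16.3 and 73.2 in T and 12.7 and 56.9 in R, and Gm527 7.47 and 40.3 in T and 7.84 and 22.99 in R. Over the 12 sums of 6 classes in 2 mice, log2(1 + CPM) of each gene was correlated with the mean log2(1 + CPM) of the 4 T markers. The closest were the lincRNA Gm44006 (Pearson's r 0.992), the antisense transcript Prkag2os1 (0.991), Cyp1b1 (0.990), Etv2 (0.988) and Slc36a3 (0.988). These values are a description, since classes of a mouse share a library and the T cells were chosen by the same 4 markers. Gm44006, the most alike, had 196 and 192 CPM in T, 27.7 and 23.8 in R, 23.3 and 31.2 in L and 2.43 and 2.12 in E. Slc36a3, an amino acid transporter gene, had 136 and 204 CPM in T, 22.1 and 24.9 in R and 12.2 and 17.5 in L, and Cyp1b1, a cytochrome P450, 21.5 and 23.99 in T, 4.41 and 3.24 in R and 5.41 and 5.04 in L.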

How the data were processed

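Pieces of testis of 2 mice, digested and strained to lower the share of somatic cells, were measured, 1 droplet library each (Chromium 3′ v2). Per the labels and the study's methods, the authors demultiplexed with bcl2fastq 2.17.1.14, counted with Cell Ranger 2.0.0 against repeat-masked GRCm38 with added repeat sequences, downsampled reads to equal depth between mice, and deposited whole UMI counts per row and called cell. The deposited counts (51868 rows, of which 50686 genes and 1182 repeat rows, and 2552 cells) were used without a cell filter. The ending of a barcode was taken as the number of the mouse. UMIs were summed per class and mouse and divided by the sum to give CPM. A call needed 2-fold in both mice and 30 UMIs per mouse in the higher class (for a class maximum, in T), and 0 counts were set to 3 in ratios. No length division was applied to 3′ counts. Named genes were the 12 with the largest excess over the next class, the 6 at each end of the T to R and T to L ratios and the 4 of each kind along the bins (100 UMIs per mouse), the 5 highest in T, up to 4 of each of 31 lists with any member highest in T, 4 mouse differences, 3 repeat rows and 5 most alike, plus list members given as examples and genes said to be picked later. The members, the lists and the rules were chosen with earlier results of these data known. Cells were thinned without replacement (seed 42). Gene positions came from the annotation of GRCm38, in which 50376 genes matched by identifier. Python 3.11.15, numpy 2.4.6, scipy 1.17.1, pandas 2.3.3, scanpy 1.11.5 (scrublet), matplotlib 3.10.9, R 4.3.3 and edgeR 4.0.16 (TMM factors only) were used. Reads and the authors' cell type table were not used here. Alternatives changed the scaling, the UMI minimum, the fold, the depth, the doublets, the margin, the marker genes and the mice.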

Additional observations from a re-analysis of the deposited data

How the results depend on the processing

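T held 226 cells, and the T-class share of cells averaged 8.83% over the mice. Thinning to 5000 UMIs gave 10.3% and 264 members, of which 199 were shared. Each mouse alone gave 104 to 123 members. Leaving out Hemgn, 2200002J24Rik, Tmco5b or Pex5l from the score gave 236, 245, 249 and 246. The genes highest in T numbered 280, and 148 with a minimum of 100 UMIs, 424 with 1 UMI, 478 with a fold of 1.5, 140 with a fold of 3, 119 after thinning (104 shared) and 341 to 401 in a single mouse. T above R, 1040 genes, became 601, 2029 and 477 with a minimum of 100 UMIs, with 1 UMI and after thinning, and T below R, 2127 genes, became 1318 with a minimum of 100 UMIs, 3432 and 950 with folds of 1.5 and 3, and 721 after thinning. T above L, 2155 genes, became 1179 with TMM scaling, 1168 and 3775 with minimums of 100 and 1, 1272 with a fold of 3 and 1066 after thinning. T below L, 130 genes, became 659 with TMM scaling, 217 without protamine and transition protein genes, 86 and 347 with minimums of 100 and 1, 406 and 31 with folds of 1.5 and 3, and 199 (mouse 1) to 290 (mouse 2) in a single mouse. A stricter minimum or fold and fewer UMIs lower such counts by construction, as a single mouse raises them, and the cause of the other changes was not tested. Genes per cell were 0.904 times R and 1.40 times L at equal depth. Of 2752 recomputed values of single genes, 1928 moved by less than the SD over the mice, 824 by more, and 0 reversed a called direction. These tallies include the values of each mouse alone, whose outcome was fixed in advance. A single mouse of 2 always lies within the SD of their mean and cannot reverse a direction called in both. The tallies are therefore no measure of stability. Ratios between classes were taken within each mouse and are thus paired by mouse as given, with no test on them. Genes under 30 UMIs per mouse could not be called.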

Other observations

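Further single genes highest in T were chosen after their values were seen, and no list of such genes was counted or tested, so they stand as examples. Examples were Ercc5, an endonuclease of nucleotide excision repair, at 43.1 and 47.02 CPM in T, 9.31 and 11.2 in R and 0.853 and 2.35 in L, and Mbd4, a thymine glycosylase, at 14.5 and 19.2 CPM in T and 6.62 and 7.83 in R. Ung, a uracil glycosylase, had 28.1 and 20.8 CPM in T, 1.72 and 1.87 in R and 11.4 and 9.41 in L, but lost the call with TMM scaling. The collagen genes Col15a1, at 34.7 and 31.7 CPM in T and 4.55 and 7.73 in L, and Col26a1, at 17.6 and 16.6 CPM in T and 2.28 and 3.02 in L, were among the 280 genes. Pabpc1l, a poly-A binding protein known from oocytes, had 18.02 and 13.4 CPM in T and 2.45 and 2.38 in R. Fam71a, which lost the call with TMM scaling, was at 404 and 479 CPM in T, 33.1 and 28.8 in R and 149 and 163 in L, and Fam71b at 260.2 and 368 CPM in T, 22.3 and 26.9 in R and 59.5 and 126 in L. Glb1, the lysosomal beta-galactosidase, had 20.7 and 22.4 CPM in T and 8.09 and 9.20 in R. Fdps, an enzyme of isoprenoid and sterol synthesis, had 141 and 158 CPM in T, 32.3 and 33.4 in R and 30.7 and 40.8 in E. The lincRNA 1700101O22Rik had 1095 and 869 CPM in T, 266 and 215 in R and 125 and 113 in L.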
